A study of Mus musculus with 6 samples.

Results

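Microfold-like medullary thymic epithelial cells (mTECs) were followed here through 7 genes: the transcription factors Spib and Sox8, the surface receptor Gp2, and Tnfaip2, Marcksl1, Aif1 and Icam4. These are 7 of the 20443 genes in the deposited expression tables, and each was matched by its symbol. All 7 passed the filter on low values, a mean of at least 0.5 FPKM, the number of sequenced fragments per kilobase of a transcript relative to all mapped fragments, which allows levels of different genes to be compared. The genes were chosen by name for their link to microfold cells, with the FPKM of the control and Jmjd3-deficient libraries already known. Their differences between the groups are therefore given as a description, with no test.

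The mTECs were sorted by flow cytometry from C57BL/6 mice aged 4 weeks, with 1 library per mouse. All 6 mice carried floxed Jmjd3 alleles (Jmjd3 fl/fl). The 3 control mice (Con_253, Con_261 and Con_264) had no Cre. The 3 Jmjd3-deficient mice (cKO_262, cKO_263 and cKO_265) had the same alleles with Foxn1-cre, whose promoter is active in cortical as well as medullary thymic epithelium, so the deletion was not limited to microfold-like cells. None of the 6 libraries came from a mouse with Foxn1-cre and unfloxed Jmjd3. An effect of Foxn1-cre itself and one of the loss of Jmjd3 thus cannot be told apart. Jmjd3 is a demethylase of lysine 27 of histone H3, and the series asks what it does for the expression of tissue-restricted antigens in mTECs.

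Microfold (M) cells are epithelial cells over the lymphoid follicles of the gut that take up particles and microbes and pass them to the immune cells below. Their formation is driven by the cytokine RANKL acting on its receptor RANK, through noncanonical NF-kB, and by the Ets factor Spi-B (Spib), with Sox8 acting in their maturation. RANK signalling is also what matures mTECs, and a small share of mTECs takes on the transcript programme of gut M cells. In bulk RNA such cells are mixed with all other mTECs.

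The libraries expressed mTEC genes throughout: 14 of the 15 listed identity genes were found, and all 14 were tested. Their summed level was 18289 to 20440 FPKM in control mice against 17143 to 20890 FPKM in deficient mice. Most of that sum came from the MHC class II genes Cd74, H2-Aa and H2-Ab1, so it says little about the other identity genes. Kdm6b, the gene of Jmjd3, had an FPKM of 18.1 in Con_253, 17.1 in Con_261 and 9.998 in Con_264, against 11.1 in cKO_262, 11.6 in cKO_263 and 8.67 in cKO_265. The groups overlapped, because Con_264 lay inside the range of the deficient libraries, and the difference did not pass (−0.45, SE 0.23, limma adjusted p = 0.418). The floxed exons are not given in the sources used here, so the FPKM of the whole gene does not check the labels. Con_264 was the lowest control, and cKO_265 the lowest deficient library, for Spib, Tnfaip2, Marcksl1 and Aif1 as well as for Kdm6b, Aire, Fezf2 and Relb. cKO_265 lay at 53.02 on the first principal component of all genes, against -22.7 to 7.42 for the others. Con_253 alone had Y-linked transcripts above trace level (Eif2s3y at 7.88 FPKM, against at most 0.0409 in the others).

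The bases upstream of 3 members are shown, because the results turn on 1 regulator (Spib) whose libraries overlapped between the groups and on the receptor (Gp2) and the cytoskeletal protein (Aif1), whose libraries did not. They are from RefSeq (GRCm38.p6, the assembly of the mm10 build of the tables), read 5′ to 3′ on the minus strand, and stop before the first annotated exon. Capitals mark GGAA, the core that Ets factors bind, on either strand (TTCC on the strand shown). The stretches are chr7:119459286-119459522 for Gp2, chr17:35176069-35176302 for Aif1 and chr7:44532072-44532321 for Spib.
Gp2: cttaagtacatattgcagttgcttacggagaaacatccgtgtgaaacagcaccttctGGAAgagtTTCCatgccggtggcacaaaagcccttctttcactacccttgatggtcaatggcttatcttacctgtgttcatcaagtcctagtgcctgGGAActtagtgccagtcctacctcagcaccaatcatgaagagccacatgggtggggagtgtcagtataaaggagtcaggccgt
Aif1: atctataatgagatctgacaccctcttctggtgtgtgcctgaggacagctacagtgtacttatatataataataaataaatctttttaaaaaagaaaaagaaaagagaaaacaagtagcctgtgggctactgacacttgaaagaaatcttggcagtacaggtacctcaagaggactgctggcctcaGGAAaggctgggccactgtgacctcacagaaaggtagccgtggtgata
Spib: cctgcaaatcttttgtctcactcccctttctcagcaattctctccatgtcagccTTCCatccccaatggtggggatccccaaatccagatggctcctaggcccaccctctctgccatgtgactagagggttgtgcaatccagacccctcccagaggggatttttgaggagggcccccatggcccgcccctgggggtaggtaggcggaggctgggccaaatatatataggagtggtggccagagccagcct
The Gp2 stretch, which ends 14 bases before the RefSeq start, holds 3 Ets cores, at −193, −185 and −96, and a TATAAA box at −32. The Aif1 stretch holds 1 Ets core, at −64, and the Spib stretch 1, at −196.

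All 7 members were searched over the whole RefSeq window, 250 bases before to 50 after the start, on both strands. GGAA was present in 6 of the 7 windows (not in that of Sox8) and in 96.0% of the 32851 windows of all genes, so its presence sets no member apart. The longer form GAGGAA contains the core and is nearer to what Spi-B and PU.1 bind. It was in the windows of Gp2 (at 13, after the start), Aif1 (at −7) and Marcksl1 (at −62), and in 28.3% of all windows. The NF-kB type motif GGANTTTCC was in that of Tnfaip2 alone, at −87, and in 1.25% of all windows. GENCODE starts Tnfaip2 at 111442469, upstream of the RefSeq start at 111442661 and of this site, so the site lies inside the GENCODE gene. ACAAT, the Sox type motif, was in those of Aif1 and Icam4 and in 31.0% of all, TATAAA in that of Gp2 and in 13.6% of all. TGANTCA, the AP-1 type, was in 0 of the 7 and in 7.81% of all. These are letter matches in 1 window per gene and do not show binding.

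The windows differed in base composition. Tnfaip2, Marcksl1 and Sox8 had 23, 22 and 21 CpG, against a median of 7 over all windows, and GC contents of 64.3%, 63.7% and 66.3%, against a median of 52.7%. Icam4 had 13 CpG, and Gp2, Spib and Aif1 had 4, 2 and 1.

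The levels of the members spanned a wide range on the per-length FPKM scale. Marcksl1 was highest in all 6 libraries, above 99.5% of tested genes by its mean. Gp2 (97.8%), Spib (96.6%) and Tnfaip2 (95.9%) followed, and Aif1 (57.4%), Icam4 (38.6%) and Sox8 (38.4%) were near the middle of the distribution. Neighbours in that order were not always apart: Spib and Tnfaip2 overlapped in the controls, as did Aif1 and Sox8. In cKO_262 Spib was above Gp2, and in cKO_265 Tnfaip2 was above Spib. Sox8 was the lowest member in each deficient library and Icam4 in each control.

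Across the 7 members, 4 were higher and 3 lower by value, with a median difference of 0.02 in log2(FPKM + 1), the control mean taken from the deficient mean, beside −0.04 over all 15720 tested genes. The sign of that median rested on single libraries: it was −0.14 without Con_264 and 0.16 without cKO_265, and −0.11 after quantile normalization. In the fit over all genes (limma) 0 of the 7 were called at an adjusted p under 0.05, where 0.0763% of all tested genes (12) were called. Aif1 alone was called after quantile normalization, after median centring, and when cKO_265 was left out, alone or together with Con_253. Of all tested genes, 18, 12, 19 and 8 were called under these settings, in that order. Aif1, Gp2 and Icam4 were called with library weights, where 3025 of all 15720 tested genes were called. At an unadjusted p under 0.05 there were 3 members, where 14.6% of all genes passed. Aif1 and Icam4 did not overlap and were higher, as 9.59% of all genes did, and Gp2 did not overlap and was lower, as 11.9% did. The members were chosen with these differences known, so nothing is read from these counts. The list holds no common direction: the most abundant of the 3 that stood apart was the lower one.

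**Figure D1:**
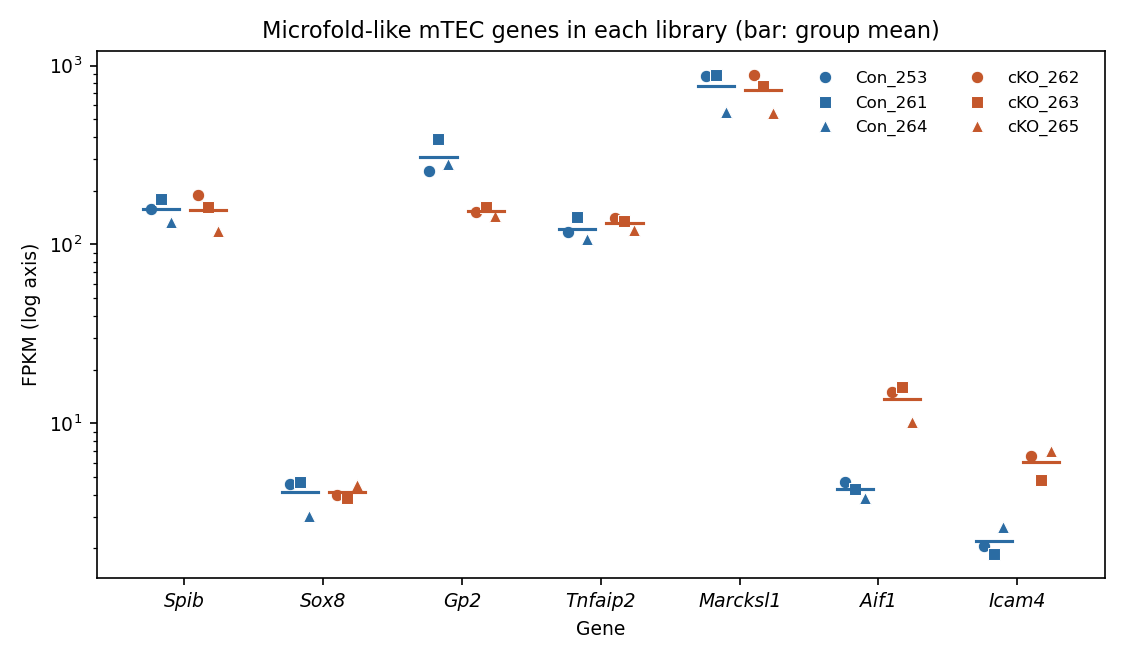
FPKM on a log axis of the 7 members in each library, controls in blue and Jmjd3-deficient in orange, with the group mean as a bar. Gp2 is lower in all 3 deficient libraries (145 to 163 FPKM) than in the controls (257 to 389 FPKM), Aif1 and Icam4 are higher in all 3, and the other 4 overlap.

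Spib, the Ets factor that M cells need, had an FPKM of 159 in Con_253, 180 in Con_261 and 134 in Con_264, against 188 in cKO_262, 162 in cKO_263 and 119 in cKO_265. The group means were 157 ± 23.3 and 157 ± 35.2 FPKM (mean ± SD, n = 3 each, as for all means below), and both the highest and the lowest library were deficient. The difference in log2(FPKM + 1) was −0.02 (SE 0.20, 95% interval −0.47 to 0.43). Changes of up to about that interval in either direction are not excluded by these 6 libraries. The gene lies on chromosome 7 from 44525995 to 44532071, minus strand, and its principal transcript has 6 exons.

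Sox8 was at 4.60, 4.73 and 3.02 FPKM in the controls against 4.00, 3.83 and 4.52 FPKM in the deficient libraries, each in the order of the mouse numbers, which is kept from here on. The deficient libraries all lay within the range of the controls (4.12 ± 0.952 against 4.12 ± 0.361 FPKM). The difference was 0.02 (SE 0.19, interval −0.43 to 0.46). It lies on chromosome 17 from 25565893 to 25570686, minus strand, with 3 exons, and 10.6% of its exon bases are also exon of the antisense gene 2810468N07Rik. The sign of the differences of both regulators turned under some alternatives. The ratio of Spib to Sox8 was 38.9 ± 4.96 in control mice against 38.6 ± 10.9 in deficient mice.

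Gp2 encodes glycoprotein 2, the receptor on the surface of M cells that binds bacteria carrying type 1 fimbriae. Its FPKM was 257, 389 and 281 in the controls against 151, 163 and 145 in the deficient libraries. Every deficient library was below every control, and the deficient libraries were close to each other (coefficient of variation 5.91%, against 22.8% in the controls). The means were 309 ± 70.4 and 153 ± 9.04 FPKM, 2.02-fold higher in the controls, and the log2 difference was −0.99 (SE 0.18). Without Con_264 it was −1.04, without Con_253 −1.11 and without Con_261, the highest control, −0.81. In such bulk samples, fewer cells of a type and less RNA per cell cannot be told apart.

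Set against Spib in the same library, Gp2 was at 1.62, 2.16 and 2.10 times the Spib level in the controls against 0.802, 1.003 and 1.22 times in the deficient libraries. The receptor was thus lower relative to its regulator as well as to Epcam: over Epcam, an epithelial surface gene, the ratio was 0.380 ± 0.0510 in the controls against 0.178 ± 0.0215 in the deficient libraries. Both ratios have Gp2 in them and so are no separate evidence.

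Umod (uromodulin), the relative of Gp2 with the same zona pellucida type domain, lies beside it on the same strand of chromosome 7, 3593 bases farther up the coordinates (119462866 to 119479255). Its FPKM was 4.95, 6.65 and 5.98 in the controls against 2.95, 2.65 and 2.92 in the deficient libraries, and the groups did not overlap. The log2 difference of −0.83 (SE 0.17) did not pass the threshold (limma adjusted p = 0.122). The ratio of Gp2 to Umod was 52.4 ± 5.80 in the controls against 54.1 ± 6.42 in the deficient libraries, with ranges that overlapped. Exons of an antisense gene, Gm44588, cover 19.5% of the exon bases of Umod. Gpr139, the next gene on the other side of Gp2, lies 258169 bases away and was at 0.107 to 0.601 FPKM.

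**Figure D2:**
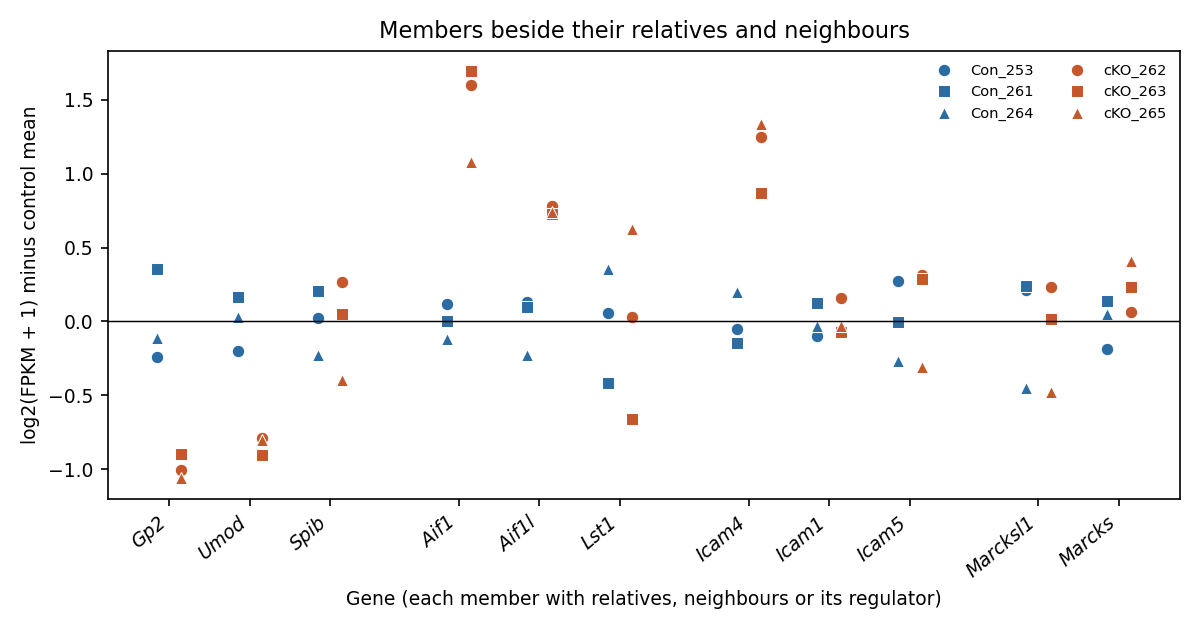
Each library's log2(FPKM + 1) minus the control mean for Gp2, Aif1, Icam4 and Marcksl1 beside a relative, neighbour or regulator. Gp2 and Umod are both low in the 3 deficient libraries (differences of −0.99 and −0.83) and Aif1 and Aif1l both high (1.46 and 0.75), whereas Spib, Lst1, Icam1 and Icam5 spread over both sides of the line.

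Tnfaip2 encodes M-Sec, a protein that acts on the actin cytoskeleton in cell protrusions and is found in M cells. It was at 118, 142 and 108 FPKM in control mice against 141, 136 and 120 FPKM in deficient mice. The ranges overlapped, with means of 123 ± 17.8 and 132 ± 10.8 FPKM and a difference of 0.12 (SE 0.15, interval −0.23 to 0.46). Relative to Spib it was at 0.779 ± 0.0339 in the controls against 0.865 ± 0.134 in the deficient libraries. The gene runs from 111442661 to 111455018 on the plus strand of chromosome 12 in 12 exons. Its relative and neighbour Exoc3l4, 11477 bases away, overlapped too (0.28, SE 0.19).

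Marcksl1, a membrane-bound protein that binds actin and calmodulin, was at 872, 889 and 552 FPKM in control mice against 888, 764 and 540 FPKM in deficient mice. The low values were those of Con_264 and cKO_265, and within each group the spread was wider than the gap between the means (771 ± 190 and 731 ± 176 FPKM). The difference was −0.07 (SE 0.25, interval −0.64 to 0.49). Its relative Marcks was at 38.3 to 48.3 FPKM in the controls against 45.8 to 58.3 FPKM in the deficient libraries. Marcksl1 has 2 exons on chromosome 4 from 129513581 to 129515981, plus strand, and lies 122 bases from Hdac1, a histone deacetylase gene (0.22 on the log2 scale).

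Aif1 (also known as Iba1) is an actin-bundling, calcium-binding protein of macrophages and microglia that M cells also make. It was at 4.73, 4.28 and 3.85 FPKM in the controls against 14.996, 16.1 and 10.1 FPKM in the deficient libraries. The lowest deficient library was above the highest control, and the lowest in each group was the one that was low for Spib and Marcksl1 too. The means were 4.29 ± 0.440 and 13.7 ± 3.16 FPKM, 3.20-fold higher in the deficient mice, and the log2 difference was 1.46 (SE 0.20). Leaving out Con_264 gave 1.40, leaving out cKO_265 gave 1.65, and leaving out Con_253 together with cKO_265 gave 1.71. The gene covers chromosome 17 from 35170992 to 35176001, minus strand, with 8 exons. Its neighbours Lst1 (0.00, limma adjusted p = 0.999) and Prrc2a (−0.39, adjusted p = 0.521) lay 9093 and 6114 bases away.

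Aif1l, the paralog of Aif1 on another chromosome, was much more abundant. It was at 183, 179 and 143 FPKM in control mice against 288, 277 and 280 FPKM in deficient mice, with no overlap. The difference of 0.75 (SE 0.14) did not pass (limma adjusted p = 0.118), and after quantile normalization it was 0.48. The paralogs' ratio, Aif1 over Aif1l, was 0.0255 ± 0.00151 in the controls against 0.0487 ± 0.0113 in the deficient libraries. How the authors' counting split reads of similar genes is not given in the sources used here.

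Macrophages are a source of Aif1 that a sort could let through, so their markers stand beside it. All 16 listed markers were in the tables, and 4 of them had means under 1 FPKM. Their summed level, most of it from Lyz2 and Laptm5, was 602 to 701 FPKM in control mice against 483 to 531 FPKM in deficient mice. Of the 14 tested, 13 were lower and 1, Fcer1g, was higher in the deficient mice by value. None was called (limma, 3 with an unadjusted p under 0.05, beside 14.6% of all tested genes). Lyz2 was at 362, 324 and 347 FPKM in control mice against 267, 242 and 275 FPKM in deficient mice, Laptm5 at 156 to 195 and 96.7 to 166 FPKM, and Fcgr1 was listed at 0 in cKO_265. Csf1r, the receptor that macrophages depend on, was at 4.83 to 5.50 FPKM and 4.19 to 4.85 FPKM, so that Aif1 was at 0.859, 0.887 and 0.728 times Csf1r in the controls against 3.10, 3.83 and 2.09 times in the deficient libraries. Fcer1g, shared by many myeloid cells, was at 15.4 to 24.7 FPKM in the controls against 24.8, 36.9 and 79.1 FPKM in the deficient libraries (1.12, limma adjusted p = 0.234). Dendritic cell markers (12, of which 4 had means under 1 FPKM) summed to 558 to 913 FPKM and to 1011 to 1314 FPKM. Most of that was Ly6d, at 481 to 829 and 926 to 1224.5 FPKM, near the level of the epithelial gene Epcam (751 to 887 and 813 to 945 FPKM). The sum therefore mostly follows Ly6d, and which cells made Ly6d was not tested. Bst2 was at 34.8 to 43.5 and 49.7 to 54.1 FPKM and Tcf4 at 15.4 to 18.7 and 11.2 to 14.1 FPKM. The dendritic cell genes Itgax, Clec9a, Cd209a and Siglech were under 1 FPKM in every library. The rest of that list was above it. Batf3 was at 4.04 to 9.60, Ccr9 at 5.50 to 8.80, Zbtb46 at 3.21 to 5.46, Flt3 at 2.44 to 5.23 and Xcr1 at 1.02 to 1.41 FPKM over the 6 libraries. The part of such cells in the Aif1 level was not tested.

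**Figure D3:**
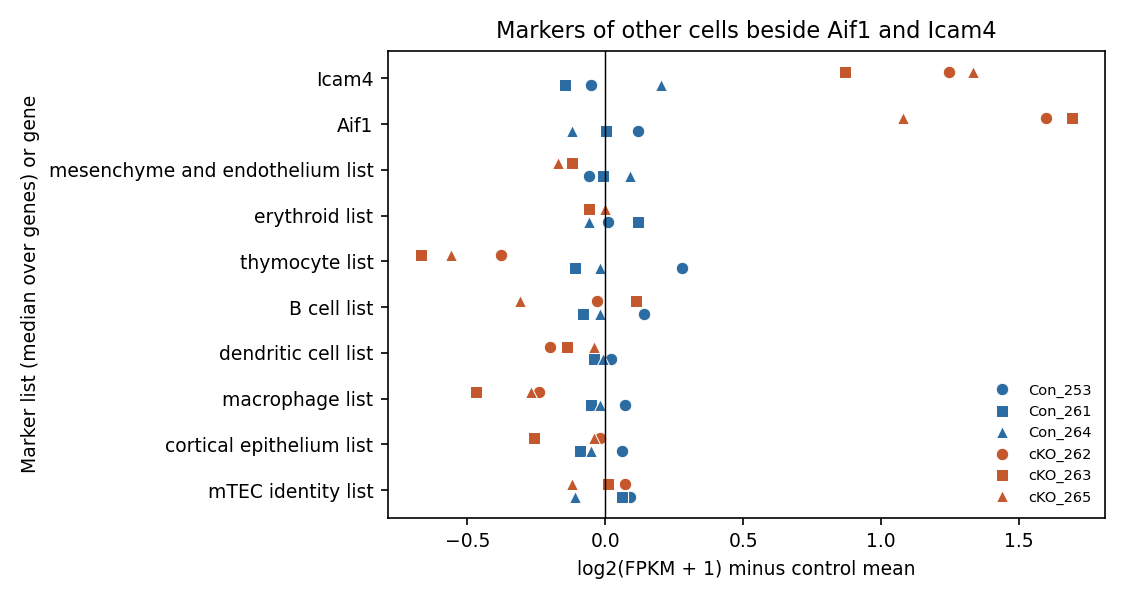
Median over each marker list of log2(FPKM + 1) minus the control mean, 1 point per library, with Aif1 and Icam4 on the top lines. The macrophage list lies below the control mean in the 3 deficient libraries, where Aif1 and Icam4 lie above it by 0.87 or more, and the mTEC identity list stays between −0.12 and 0.09 in all 6.

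Icam4 encodes the Landsteiner-Wiener glycoprotein, an adhesion molecule known from red cells that binds integrins. It was at 2.06, 1.86 and 2.65 FPKM in the controls against 6.53, 4.80 and 7.004 FPKM in the deficient libraries. The groups did not overlap, and the lowest of each were Con_261 and cKO_263. The means were 2.19 ± 0.407 and 6.11 ± 1.16 FPKM, 2.79-fold higher in the deficient mice, with a log2 difference of 1.15 (SE 0.20). It was 1.25 without Con_264 and 1.06 without cKO_265. With a pseudocount of 0.1 in place of 1 it was 1.44, since the added 1 compresses low values.

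The Icam4 value has a limit of its own. The gene lies on chromosome 9 from 21029373 to 21030531, plus strand, and 100% of its exon bases lie in exons of the antisense gene Gm47079 in the GENCODE annotation. The use of strand in counting is not given in the sources used here, so reads of the pair cannot be told apart. Icam1 and Icam5, its relatives on either side, did not pass: Icam1, 576 bases away, was at 186, 217 and 195 FPKM in control mice against 222, 190 and 195 FPKM in deficient mice (0.02, limma adjusted p = 0.966), and Icam5, 1506 bases away, was at 2.44 to 4.02 and 2.35 to 4.15 FPKM (0.10, adjusted p = 0.886). Icam4 over Icam1 was 0.0111 ± 0.00249 in the controls against 0.0302 ± 0.00538 in the deficient libraries.

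Red cell precursors express Icam4, and 8 of the 11 listed erythroid markers were in the tables. The globin genes Hbb-bt, Hba-a1 and Hba-a2 were not, which left Hbb-bs as the only listed globin found. The markers found summed to 17.6 to 21.9 FPKM in the controls against 19.5 to 23.0 FPKM in the deficient libraries. Of the 7 tested, 6 were lower and 1 higher by value. The one was Hbb-bs, an adult beta globin listed under its older symbol Beta-s, at 1.86, 2.70 and 0.952 FPKM in the controls against 4.73, 5.22 and 5.94 FPKM in the deficient libraries (1.19, SE 0.25, limma adjusted p = 0.123). Alas2, the erythroid enzyme of haem synthesis, was at 7.08 to 8.95 and 6.32 to 8.22 FPKM, and Epb42 (listed as Epb4.2) at 3.69 to 4.13 and 2.62 to 4.61 FPKM. The part of red cell RNA in the Icam4 level was not tested.

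Other genes of M cells were taken from a separate list of 22, all tested. None was called (limma, 3 with an unadjusted p under 0.05, lowest adjusted p 0.122), 12 were higher and 10 lower by value, and the median was 0.10. That median was −0.10 after quantile normalization, −0.04 with library weights and −0.02 without Con_253 and cKO_265. The groups did not overlap for 4 higher genes (Clu, Serpinb6a, Prnp and Cxcl16) and for 2 lower ones (Umod and Atoh8). Of all tested genes, 9.59% were higher and 11.9% lower with no overlap, and 14.6% had an unadjusted p under 0.05. Clu (clusterin), a secreted chaperone, was at 772, 780 and 629 FPKM in control mice against 995, 1063 and 1159 FPKM in deficient mice (0.56, SE 0.15, limma adjusted p = 0.174, but 0.05 after quantile normalization). Serpinb6a, a protease inhibitor, was at 562 to 649 and 655 to 1148 FPKM (0.46, limma adjusted p = 0.370, but −0.02 after quantile normalization and 0.22 without cKO_265), and Atoh8, a basic helix-loop-helix factor, at 9.74 to 14.7 and 6.48 to 9.71 FPKM (−0.51, adjusted p = 0.331, and −0.33 without Con_253). The chemokines Ccl9, Ccl6 and Ccl20, which M cells and the epithelium around them secrete, overlapped, at −0.06, 0.20 and −0.11.

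**Figure D4:**
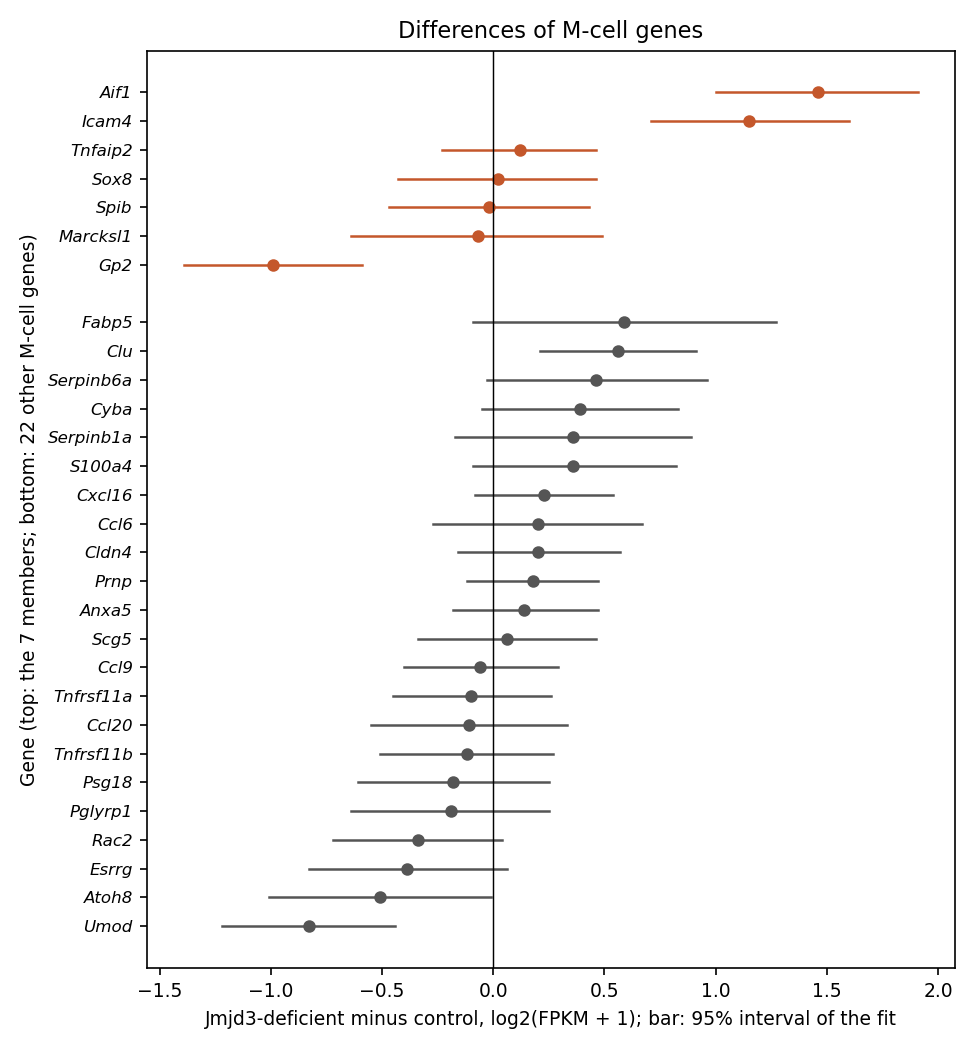
Log2 difference, Jmjd3-deficient minus control, with the 95% interval of the fit, for the 7 members (orange) and the 22 other M-cell genes (grey). Most intervals cross 0, and Gp2 (−0.99) and Umod (−0.83) lie farthest to the left.

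The pathway that induces M cells was described with 18 genes, all tested. Again none was called (limma, 4 with an unadjusted p under 0.05, lowest adjusted p 0.190), with 6 higher and 12 lower by value and a median of −0.13, which was −0.04 without cKO_265 and −0.08 without Con_253. Of all tested genes, 14.6% had an unadjusted p under 0.05. The receptor RANK (Tnfrsf11a) was at 29.4, 32.6 and 34.0 FPKM in the controls against 35.1, 29.1 and 26.0 FPKM in the deficient libraries, which overlapped. Its ligand RANKL (Tnfsf11), made mainly by lymphoid cells, was at 0.685 to 0.999 and 0.257 to 0.521 FPKM (−0.40, limma adjusted p = 0.332, and −0.95 with a pseudocount of 0.1). Beside it, 6 of the 9 tested thymocyte markers had an unadjusted p under 0.05 and were lower, and the 11 markers in the tables summed to 50.1 to 80.9 FPKM in the controls against 38.2 to 42.4 FPKM in the deficient libraries, with Lck at 10.2 to 16.4 and 7.65 to 16.8 FPKM. The part of thymocytes in the RANKL level was not tested. The decoy receptor osteoprotegerin (Tnfrsf11b) overlapped, at −0.12.

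Cd40, another tumour necrosis factor receptor that matures mTECs, was at 151, 139 and 137 FPKM in control mice against 193, 192 and 189 FPKM in deficient mice (0.43, SE 0.12, limma adjusted p = 0.190). This direction depends on summing its table entries: with the highest entry alone it was −0.15. After quantile normalization it was 0.20. Traf5, a signalling adaptor, was at 4.09 to 4.64 and 2.43 to 3.57 FPKM (−0.51, adjusted p = 0.248), and Rel, a canonical NF-kB subunit, at 4.95 to 7.24 and 2.41 to 5.01 FPKM (−0.63, adjusted p = 0.289). With library weights they were at −0.28 and −0.22. The noncanonical subunits Relb and Nfkb2 overlapped, with Relb at 232, 268 and 184 against 246, 204 and 150 FPKM and Nfkb2 at 229, 216 and 176 against 273, 234 and 193 FPKM.

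Ets and Sox relatives of the regulators, with the Irf partners of Spi-B, made up 12 tested genes. None was called (limma, 2 with an unadjusted p under 0.05, both lower, beside 14.6% of all tested genes in either direction). The median was −0.08. It was −0.30 without cKO_262, −0.19 without Con_264, −0.25 with a pseudocount of 0.1 and −0.26 with library weights. Elf3, an epithelial Ets factor, was at 132, 130 and 95.6 FPKM in the controls against 86.6, 79.9 and 65.9 FPKM in the deficient libraries (−0.61, SE 0.18, limma adjusted p = 0.190), and Ehf, another, at 11.0 to 16.4 and 9.25 to 10.2 FPKM (−0.42, adjusted p = 0.312). PU.1 (Spi1, listed as Sfpi1), the closest relative of Spi-B, was at 7.14, 6.66 and 5.90 FPKM in the controls against 6.53, 4.51 and 4.36 FPKM in the deficient libraries, which overlapped (−0.32, adjusted p = 0.480), as did Irf4 and Irf8 (0.20 and 0.18) and Sox9 (−0.16). Elf5 was at 1.13 to 2.06 and 0.682 to 1.56 FPKM. Of the 9 relatives of the other members, 0 were called and 3 had an unadjusted p under 0.05: Aif1l, Umod and Exoc3l, a relative of Tnfaip2 at 2.62 to 3.42 and 0.929 to 2.50 FPKM (−0.61, limma adjusted p = 0.291, and −0.37 without cKO_265). Their median was 0.10, and 0.00 without Con_264.

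Regulators of other mTEC types that resemble peripheral cells were set beside Spib and Sox8. Of 14 such factors, 13 were lower by value and 1 higher, with a median of −0.26, and 0 were called (limma, 4 with an unadjusted p under 0.05, all lower). The median was −0.46 with a pseudocount of 0.1 and −0.40 with library weights. Pou2f3, which makes tuft cells, was at 17.2, 12.5 and 15.4 FPKM in the controls against 9.22, 9.05 and 6.75 FPKM in the deficient libraries (−0.78, SE 0.18, limma adjusted p = 0.140, and −0.50 with library weights). Trp63, of squamous and basal epithelium, was at 17.1 to 22.5 and 10.1 to 11.3 FPKM (−0.79, adjusted p = 0.118, and −1.33 with its highest entry alone), Myog, of muscle, at 5.43 to 11.1 and 1.22 to 4.30 FPKM (−1.40, adjusted p = 0.149, and −0.89 without Con_253 and cKO_265), and Foxa3 at 2.50 to 3.04 and 0.383 to 1.99 FPKM (−0.74, adjusted p = 0.291, and −0.39 without cKO_265). Only these 4 of the 14, named for their smallest unadjusted p, did not overlap between the groups. The rest overlapped, as Spib and Sox8 did. Of all 15720 tested genes, 8597 were lower by value and 11.9% were lower with no overlap. An unadjusted p under 0.05 was found for 14.6% of them. Whether the factors differed from Spib in their response was not tested.

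Genes beside the 4 overlapping members gave no calls either. Next to Spib lie Mybpc2 (1325 bases, −0.12) and Pold1 (672 bases, −0.24), and next to Sox8 lie Sstr5 (68604 bases, −0.03) and Lmf1 (8487 bases, −0.12). Gm266, beyond Tnfaip2 (29590 bases), was at 16.9, 14.5 and 9.01 FPKM in control mice against 21.8, 25.2 and 17.2 FPKM in deficient mice (0.66), and Fam229a, beyond Marcksl1 (21624 bases), had a difference of 0.47. No gene of the tables overlapped a member.

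Markers of further cells were measured as a check on the sort. The 9 B cell markers found summed to 47.0 to 62.1 FPKM in control mice against 50.6 to 68.1 FPKM in deficient mice, led by Cd79b, Cr2 and Ms4a1. The 7 cortical epithelium markers summed to 628 to 683 against 578 to 797 FPKM, led by Ccl25, Ctsl and Prss16, and the 10 mesenchyme and endothelium markers to 37.1 to 44.4 against 31.8 to 38.8 FPKM, led by Dcn, Pdgfrb and Col1a1.

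A mean profile of the members over the libraries was taken from their standardised log2(FPKM + 1) values. Gp2 was lower and Aif1 and Icam4 were higher in the deficient libraries, so these offset each other in the mean. A gene like the mean need not be like any member. The mean was −0.05, 0.44 and −0.88 in the controls against 0.56, 0.22 and −0.29 in the deficient libraries, so that the low point was Con_264. The tested genes most like it by Pearson r over the 6 libraries were Pvrl1 (0.992), Cherp (0.977), Trerf1 (0.974), Rhebl1 (0.974) and Fscn1 (0.973). Fscn1, which bundles actin, was at 442, 464 and 292 FPKM in control mice against 500, 457 and 378 FPKM in deficient mice. Each of the 5 overlapped between the groups. The r values came from a search over all tested genes in 6 libraries and are a description only.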

How the data were processed

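RNA from 6 libraries of sorted mTECs (3 control, 3 Jmjd3-deficient mice, numbered separately in the labels, with no shared replicate numbers) was amplified with a whole-transcriptome kit, per the labels' protocols. The authors deposited 1 FPKM table per library; Bowtie2 2.2.5, Cufflinks and the build mm10 were used, per the submitters' processing notes. Annotation, strand and scaling between libraries are not given in the sources used here. The FPKM of all genes summed to 461152 to 543156 in the controls against 582835 to 641060 in the deficient libraries. Their median was 3.57 to 3.69 against 3.21 to 3.37 FPKM, and neither range overlapped between the groups. The main comparison applied no further scaling, so FPKM levels and sums compared between the groups carry this difference. The file headers name only an expression value; that it is FPKM was taken from the use of Cufflinks and from the values. The tables hold no counts, so depth is unknown and no counting interval can be given.

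Entries of a symbol were summed (25025 entries, 20468 symbols; each member had 1), and 44 entries whose symbol had become a date (25 symbols) were left out. Starts were raised by 1 base. Low genes (mean under 0.5 FPKM over the libraries) were dropped, and the others were compared by limma 3.58.1 (R 4.3.3) after adding a pseudocount of 1 and taking log2 (eBayes with trend, 2-sided, Benjamini-Hochberg over 15720 genes, threshold 0.05). On simulated data for this comparison with 15720 genes, 94 of 100 genes changed by 2 on the log2 scale and 100 of 100 changed by 4 were called. The noise was normal and independent between genes, and only genes with a mean log2(FPKM + 1) above 3 were changed. Genes as low as Icam4 and Sox8 were thus not covered. No change below 2 was simulated, and the difference of every member was smaller than that, so the recovery does not apply to them. The members and lists were chosen with earlier results of these data known. Named were the members, the neighbouring genes and up to 4 genes per list by smallest unadjusted p. Also named were the 3 most abundant markers of other cells where they bear on a member. So were the 5 genes most like the members' mean, and Kdm6b. Others named as members' relatives, pathway parts or further markers of other cells were chosen after their values were seen. Older symbols were matched through RefSeq synonyms. Alternatives were another pseudocount, 2 filters, 2 scalings, library weights, the highest entry of a symbol, and libraries left out.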

Additional observations from a re-analysis of the deposited data

How the results depend on the processing

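The tables carry no depth, 3 libraries stand for each group, and the number of genes called rested on single libraries. Against 12 genes called, weighting the libraries with limma's arrayWeights gave 3025, with weights from 0.263 (cKO_265) to 8.72 (Con_261), and the cause was not tested. Leaving out 1 library gave 2 to 23: 2 without Con_253, without Con_261 or without Con_264, 23 without cKO_262 and 19 without cKO_265. Quantile normalization gave 18, and 8 were called without both Con_253 and cKO_265. Under arrayWeights, where 3025 of all 15720 tested genes were called, the calls were 3 of the 7 members (Aif1, Gp2 and Icam4). They were also 4 of the 22 other M-cell genes, 2 of the 18 RANK and NF-kB genes and 2 of the 12 Ets and Sox genes. Of the 9 relatives of members 3 were called, and of the 14 lineage factors 5, against 0 of each list in the main fit. Umod is on both the M-cell and the relatives' lists and was counted in each. Nothing is read from these counts.

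Gp2 stayed lower (−1.23 to −0.81) and Aif1 higher (1.34 to 1.71) under all 14 alternatives, and Icam4 higher (1.03 to 1.44) under the 13 that kept it. Besides arrayWeights, Aif1 was called after quantile normalization (limma adjusted p = 0.0295), after median centring (0.0404), and with cKO_265 left out alone (0.0174) or together with Con_253 (0.0316). It was not called in the main fit (limma adjusted p = 0.0555). Nor was it called under the remaining alternatives, from 0.0530 with a mean of at least 5 FPKM to 0.259 without Con_264. The members were chosen with this contrast known, so nothing is read from these calls. The differences of Spib (−0.26 to 0.17), Tnfaip2 (−0.11 to 0.23), Sox8 (−0.19 to 0.12) and Marcksl1 (−0.50 to 0.23) took the other sign under 4, 2, 3 and 5. The median of the members' relatives, 0.10, was −0.04 with arrayWeights and −0.01 without cKO_262. No paired analysis was possible because the groups share no replicate numbers.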
